A study of Homo sapiens with 6 samples.

Results

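Mitochondrial ribosomal proteins are encoded by nuclear genes, made in the cytosol and imported into the mitochondrion, where they assemble with ribosomal RNA from mitochondrial DNA into a small and a large subunit. The small subunit reads the messenger RNA and the large subunit joins the amino acids. In human cells this ribosome makes only the proteins encoded in mitochondrial DNA, all of them membrane subunits of the respiratory chain and the ATP synthase. The members described here are the protein-coding genes whose symbol is MRPL (large subunit) or MRPS (small subunit) followed by a number, with at least 30 counts over the 6 libraries. They number 78 of 60675 gene rows, 49 by symbol of the large and 29 of the small subunit, and all 78 were among the 18267 genes tested.

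The libraries are total RNA of HEK293, an established human line of embryonic kidney origin. Of the 6 libraries, 3 carry the genotype label wild type (control) and 3 the label MOCS2 knockdown, made by RNAi. MOCS2 codes for the 2 subunits of molybdopterin synthase, which acts in making the molybdenum cofactor. The cells of both groups were kept in high-glucose DMEM with serum and Geneticin, an antibiotic, and the sources do not give the RNAi construct or the number of clones. The libraries are stranded and were made after removal of ribosomal RNA, and nothing states that the replicates were separate cultures, so p-values measure the spread among the samples as deposited, and that spread may be technical only.

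Reads assigned to genes ranged from 17958632 to 22171106 a library, and levels are given as CPM, the reads of a gene relative to all gene reads of its library. MOCS2 stood at 57.8, 66.6 and 65.6 CPM in the controls, against 69.8, 58.9 and 59.9 CPM in the other group. Its log2 fold change was -0.01 ± 0.14 (SE), with an adjusted p of 0.976 (edgeR), so RNA of the targeted gene was not lower in the libraries that carry the label (the knockdown-labelled libraries below), and every direction is one between labels. All 8 HEK293 marker genes examined were detected and tested, including CDH2 and the keratin KRT8. None of 5 hepatocyte markers passed the filter on low counts, and 1 of 5 immune, 3 of 5 endothelial and 5 of 8 fibroblast markers did. The summed fibroblast markers ranged from 20.9 to 34.7 CPM in the controls and from 11.3 to 19.0 CPM in the knockdown-labelled libraries. LUM carried that separation of the sums, with 7.24, 16.7 and 11.7 CPM in the controls, against 2.37, 1.12 and 2.22 CPM. Without LUM the sums were 11.98 to 18.01 CPM and 8.88 to 17.9 CPM and overlapped. PDGFRA of the same list was also lower without overlap, at 2.02, 5.39 and 3.12 CPM against 0.452, 0.744 and 1.48 CPM. Among tested markers, 2 of 5 fibroblast and 1 of 3 endothelial genes were lower without overlap and 0 higher. Over all genes tested, 14.3% were lower without overlap. The T cell marker CD3E had at most 3 reads in any library. The part of these other genes in the results below was not tested.

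Many member genes share a start region with a neighbour that is transcribed in the opposite direction. A neighbour on the other strand with its start within 1000 bases on either side was found for 31 of 78 members (39.7%), against 21.3% of the 14147 protein-coding genes tested, and in 28 of the 31 it was protein-coding. In 12 of the 31 the nearest such start lay inside the member. A start on the upstream side, the head-to-head arrangement, was found for 19 members (24.4%), against 11.5% of protein-coding genes. A stretch next to the start was read for 8 named members whose starts lie 10 to 150 bases from that of such a neighbour. MRPL10, 93 bases from LRRC46, had no RefSeq promoter window and was left out. The stretch read for MRPS16 lies inside the annotated gene, not upstream of its start, and is left aside. Those of MRPL12 and MRPL18 hold neither of the cores marked below. The DNA between the 2 starts is shown for the 5 with the largest log2 fold changes in size. It is read from RefSeq (GRCh38.p14) in the direction of the member gene, with capitals marking a match to CCGGAAG (the core bound by ETS factors such as GABPA) or to AAGATGGC (the core bound by YY1) on either strand.
MRPS34: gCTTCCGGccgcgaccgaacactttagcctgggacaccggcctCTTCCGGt
MRPL46: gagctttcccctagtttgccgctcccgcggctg
MRPL52: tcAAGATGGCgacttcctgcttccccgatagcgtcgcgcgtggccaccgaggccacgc
MRPS18C: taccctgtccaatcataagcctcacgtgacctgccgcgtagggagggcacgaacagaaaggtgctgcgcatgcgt
MRPS30: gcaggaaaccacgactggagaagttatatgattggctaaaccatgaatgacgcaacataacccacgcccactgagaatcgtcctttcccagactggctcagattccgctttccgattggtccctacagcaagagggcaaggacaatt

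The MRPS34 stretch is chr16:1773156-1773206 (minus strand), 51 bases between MRPS34 and EME2, a subunit of a DNA endonuclease, and it holds 2 ETS cores. The MRPL46 stretch is chr15:88467420-88467452 (minus strand), 33 bases between a large-subunit and a small-subunit gene, MRPL46 and MRPS11. The MRPL52 stretch, chr14:22829821-22829878 (plus strand), has 58 bases, faces SLC7A7, an amino acid transporter subunit, and holds 1 YY1 core. The MRPS18C stretch, chr4:83455857-83455931 (plus strand), has 75 bases and faces HELQ, a DNA helicase. The MRPS30 stretch, chr5:44808778-44808924 (plus strand), is the longest of the 5 at 147 bases and faces the noncoding gene MRPS30-DT. These are annotated starts, and no start site was measured here.

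Motif cores were counted in RefSeq promoter windows of 300 bases, 250 of them before the start, which matched 69 of the 78 members. An ETS core lay in 42.0% of the 69 windows and in 10.7% of the 27305 windows of all genes (14.2% of those of protein-coding genes). A YY1 core lay in 28.99% of member windows and in 3.03% of all windows (3.91% of protein-coding genes). A core of NRF1, GCGCA and GCGC with 1 base of any kind between them, lay in 11.6% against 6.28% (8.58% of protein-coding genes). At least 1 of the 3 cores was in 45 of 69 member windows (65.2%), in 17.9% of all windows and in 23.6% of those of protein-coding genes. A core lay in 27 of 42 large-subunit and in 18 of 27 small-subunit windows. The 3 factors are textbook regulators of nuclear genes for mitochondria, and a match is a description of the letters and no evidence of binding.

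None of the 78 members passed an adjusted p of 0.05 between the knockdown-labelled libraries and the controls (edgeR quasi-likelihood test, Benjamini-Hochberg over 18267 genes), and the share of all genes called was 0.0%. At an unadjusted p under 0.05, 6 members were higher and 2 lower in the knockdown-labelled libraries (10.3% of members), where 9.93% of all genes were higher and 10.6% lower. The groups did not overlap in 8 members that were higher and 6 that were lower (17.9% of members), where 12.5% of all genes did so upward and 14.3% downward. The share of members was below that of all genes on both marks.

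The members' log2 fold changes lay close to 0, with a median of 0.01 against 0.02 over all genes tested, and 41 were positive and 37 negative. They ran from -0.64 for MRPS34 to 0.54 for MRPS30. Their SD was 0.23, against 0.52 over all genes, and the median size regardless of sign was 0.14 against 0.27. The 95% interval lay inside a 2-fold change in either direction for 74 of 78 members, the exceptions being MRPL23, MRPL28, MRPS24 and MRPS34. For 48 members it lay inside a 1.5-fold change. At this number of libraries a change smaller than these intervals was not detectable for a given gene, and a larger change could go uncalled. The intervals of 8 members left out 0, and none of these members passed the adjusted threshold.

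**Figure D1:**
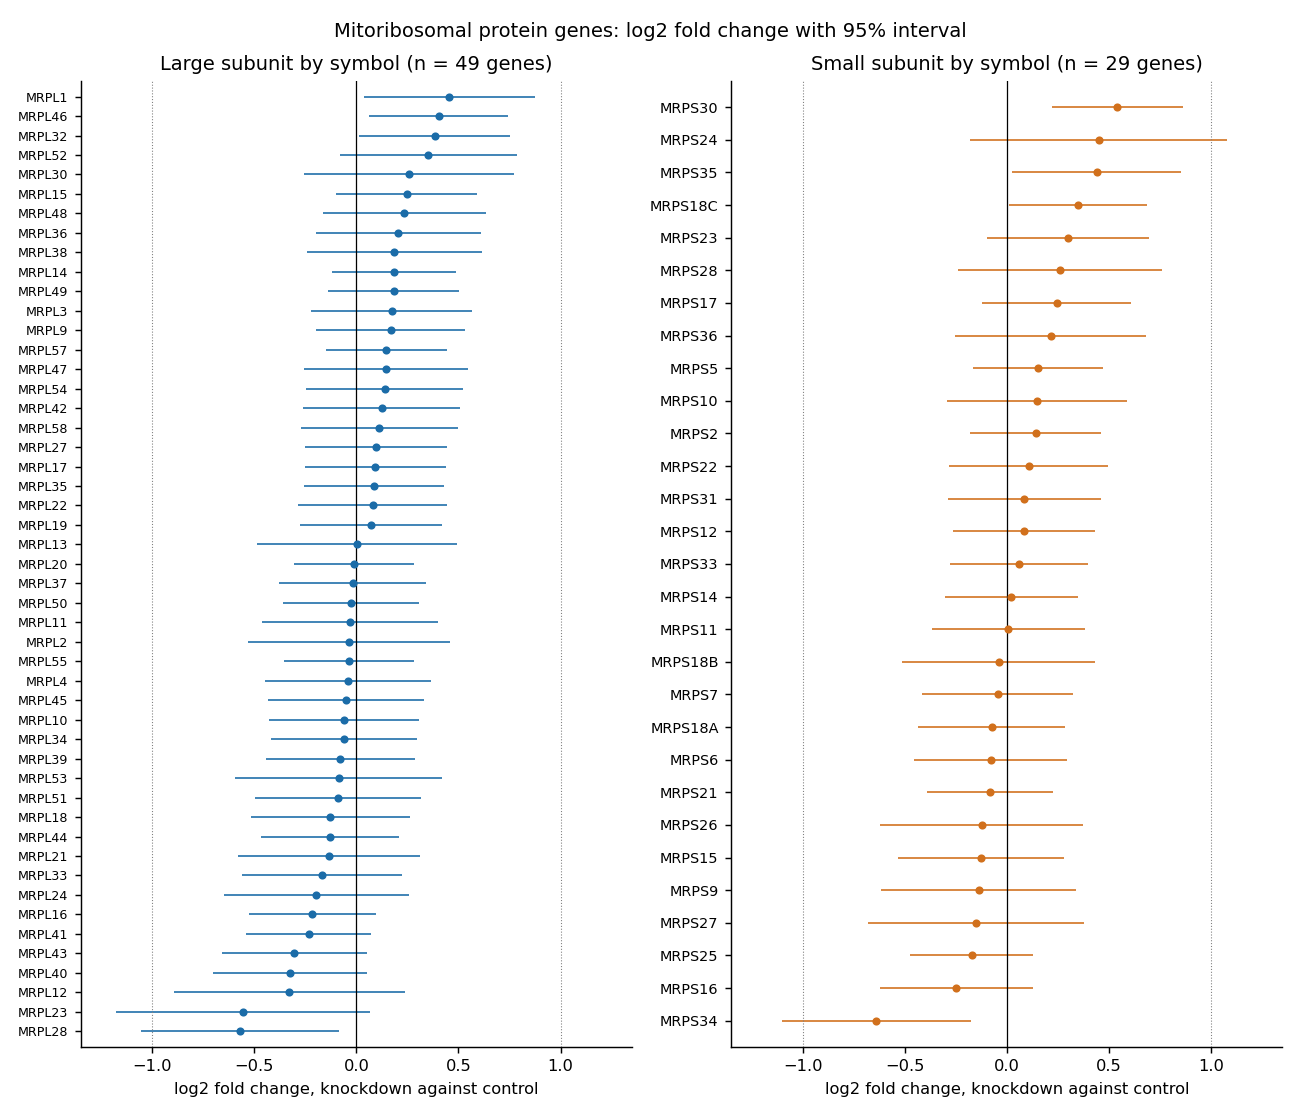
Log2 fold change (x axis, knockdown-labelled libraries against control) with its 95% interval for each of the 49 large-subunit and 29 small-subunit genes by symbol, ordered by value, with dotted lines at a 2-fold change. Most points lie near 0, and 74 of 78 intervals stay between the dotted lines.

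MRPS30, named after the small subunit but placed in the large one by structures of the ribosome, had the smallest p of all members. Its level was 128, 116 and 128 CPM in controls 1 to 3, and 201, 173 and 165 CPM in the knockdown-labelled libraries. All 3 knockdown values lay above all 3 control values. The means were 124 ± 6.91 and 180 ± 18.8 CPM (SD, n = 3 each). The log2 fold change was 0.54 ± 0.15 (SE), with an adjusted p of 0.107 by edgeR. DESeq2 called it at an adjusted p of 0.0238, a mark that 3.08% of all genes reached upward and 3.26% downward, and edgeR called it without knockdown 3 (adjusted p 0.0262), where 6.46% of all genes were called upward.

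MRPS34, a small-subunit protein without a bacterial counterpart, had the most negative value. It stood at 153, 152 and 164 CPM in the controls, against 88.7, 75.5 and 137 CPM in the knockdown-labelled libraries. The groups did not overlap, but knockdown 3 lay close to the controls and the other 2 far below. The log2 fold change was -0.64 ± 0.21 (SE), with an adjusted p of 0.140 by edgeR. It was called in 2 alternative fits, without the filter on low counts (adjusted p 0.0291, with 1.6% of all genes called upward and 2.03% downward) and without knockdown 3 (log2 fold change -0.94, adjusted p 0.00425, with 8.30% called downward).

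The other member lower at an unadjusted p under 0.05 was MRPL28, a large-subunit protein with a bacterial homologue. It stood at 103, 115 and 110 CPM in the controls, against 70.8, 50.2 and 99.8 CPM in the knockdown-labelled libraries, again with no overlap and with knockdown 3 nearest to the controls. Its log2 fold change of -0.57 ± 0.22 (SE) had an adjusted p of 0.186 by edgeR, and of 0.0108 without knockdown 3. MRPL23, a protein at the exit of the peptide tunnel, had a similar value of -0.56 ± 0.28 (SE) at a low level. Its controls were 8.85, 6.65 and 6.39 CPM and its knockdown libraries 5.43, 3.30 and 6.17 CPM, separated by a narrow gap, with an adjusted p of 0.290 by edgeR.

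Besides MRPS30, 5 members were higher at an unadjusted p under 0.05, and their adjusted p by edgeR ran from 0.185 to 0.233. MRPL46, a protein of the central protuberance at the top of the large subunit, stood at 28.5, 27.9 and 28.7 CPM in the controls, against 42.6, 37.4 and 32.7 CPM in the knockdown-labelled libraries. Its controls were nearly identical and all knockdown values lay above them, for a log2 fold change of 0.40 ± 0.15 (SE). MRPS18C, the small-subunit homologue of bacterial S18, stood at 37.0, 29.998 and 33.9 CPM and at 46.9, 38.7 and 42.9 CPM, without overlap, for a log2 fold change of 0.35 ± 0.15 (SE). MRPS35, a small-subunit protein without a bacterial counterpart, stood at 88.7, 83.9 and 88.5 CPM and at 154, 94.1 and 106 CPM, so that knockdown 1 carried most of its log2 fold change of 0.44 ± 0.19 (SE).

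In the remaining pair the groups overlapped. MRPL1, a protein of the flexible L1 stalk beside the exit site for transfer RNA, stood at 26.2, 22.1 and 24.1 CPM in the controls, against 41.2, 25.9 and 32.1 CPM in the knockdown-labelled libraries, for a log2 fold change of 0.46 ± 0.19 (SE). MRPL32, whose cleavage by the m-AAA protease is known to precede its assembly into the ribosome, stood at 79.4, 73.0 and 90.4 CPM and at 124, 105 and 87.3 CPM, for 0.38 ± 0.17 (SE). In both, 1 knockdown library lay within the range of the controls.

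Small differences without overlap were seen in 6 further members, named after their values were seen except MRPS25. MRPL57 stood at 55.6, 52.8 and 55.1 CPM in the controls, against 59.7, 64.2 and 57.1 CPM in the knockdown-labelled libraries. MRPL49 and MRPS17, the homologue of bacterial S17, were also higher in all 3, with log2 fold changes of 0.18 and 0.24. MRPL41, the member richest in GC at 71.9%, stood at 44.3, 47.5 and 49.4 CPM in the controls, against 41.9, 38.7 and 39.4 CPM in the knockdown-labelled libraries. MRPL16, which lies near the peptidyl transferase centre, and MRPS25 were lower in all 3, with log2 fold changes of -0.22 and -0.17. All 6 had an unadjusted p above 0.05, and their adjusted p by edgeR ran from 0.358 to 0.564.

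In other members the groups overlapped, and 1 or 2 of the knockdown-labelled libraries lay apart from the rest. MRPS27, a small-subunit protein of the pentatricopeptide repeat family, stood at 115, 116 and 104 CPM in the controls, against 117, 59.5 and 125 CPM in the knockdown-labelled libraries, so that only knockdown 2 lay below the controls. MRPS26 had the same shape, with 70.3, 64.2 and 51.5 CPM in the controls, against 73.3, 38.4 and 59.1 CPM. MRPS16, a homologue of bacterial S16, differed from these, with knockdown 1 and 2 at 92.1 and 88.5 CPM and knockdown 3 at 128 CPM, at the top of the control range of 117 to 128 CPM. MRPL40, of the central protuberance, stood at 62.9, 69.5 and 79.5 CPM, against 48.3, 52.7 and 68.2 CPM, again with knockdown 3 highest of its group. MRPL52, also of the central protuberance, was at 34.1, 31.3 and 39.3 CPM, against 53.4, 32.6 and 47.6 CPM, with knockdown 2 inside the range of the controls. The adjusted p of these 5 by edgeR ran from 0.306 to 0.790, and MRPS26 and MRPS27 were at 0.09 and 0.11 on the log2 scale without knockdown 2.

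**Figure D2:**
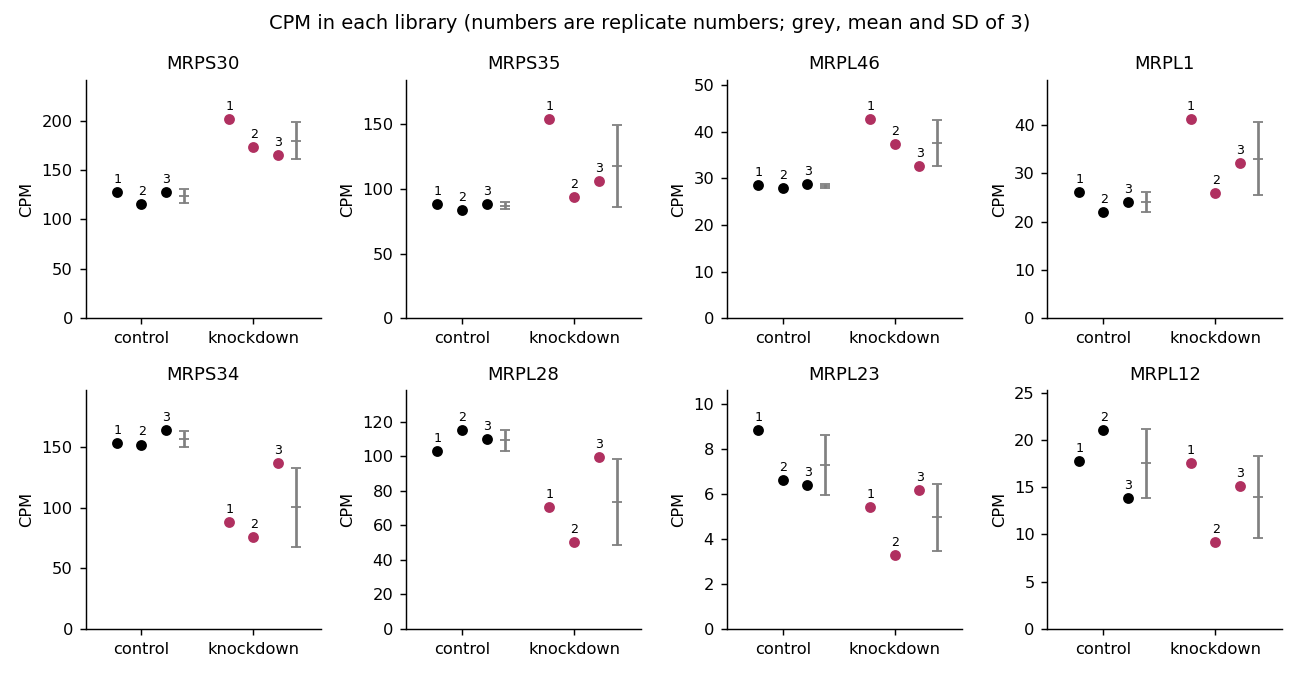
CPM (y axis, from 0) of 8 members in each of 3 control and 3 knockdown libraries, with the replicate number at each point and the mean and SD of 3 in grey. The upper 4 genes have higher and the lower 4 lower means in the knockdown-labelled libraries, and knockdown 3 lies nearest to the controls in MRPS34 and MRPL28.

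By subunit, the median log2 fold change was -0.01 over the 49 large-subunit genes and 0.06 over the 29 small-subunit genes, a difference of 0.07. A difference of subunit medians was also taken within each library and had a pooled SD of 0.02. That SD is not the spread of the 0.07, which compares medians of log2 fold changes. The 0.07 became 0.02 when genes were assigned by structure, and it ran from -0.002 to 0.071 when a library was left out. By symbol, 3 large and 3 small members were higher and 1 of each was lower at an unadjusted p under 0.05 (8.16% of large and 13.8% of small members, against 20.5% of all genes). Summed CPM of the small subunit divided by that of the large was 0.708, 0.711 and 0.695 in the controls and 0.699, 0.704 and 0.715 in the knockdown-labelled libraries. The groups overlapped and the mean log2 ratio differed by 0.003.

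By structure, MRPS18A and MRPS30 count as large, MRPS36 is left out because it belongs to the oxoglutarate dehydrogenase complex, and 5 proteins with other symbols are added (DAP3, PTCD3, CHCHD1 and AURKAIP1 to the small subunit, GADD45GIP1 to the large), which gives 30 small and 52 large genes. The ratio was then 0.699, 0.710 and 0.685 in the controls and 0.652, 0.653 and 0.692 in the knockdown-labelled libraries. The mean log2 ratio was lower by 0.07, with knockdown 3 inside the range of the controls. AURKAIP1 had the largest value of the 5 added genes, -0.36 ± 0.17 (SE) on the log2 scale with an adjusted p of 0.275 by edgeR, and 0 of the 5 had an unadjusted p under 0.05.

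Among the structural groups, the stalk that binds translation factors had 4 of 5 members below 0 and a median of -0.06. MRPL12, the stalk protein also known to bind the mitochondrial RNA polymerase, was at -0.33 ± 0.26 (SE). The tunnel exit had 5 of 8 members below 0 and a median of -0.07, and the central protuberance had 7 of 11 above 0 and a median of 0.10. The 17 small-subunit genes with bacterial homologues had a median of 0.02 and the 9 without had 0.06, while the 30 and 19 such large-subunit genes had -0.004 and -0.02. Single members of each group lay on both sides of 0. MRPS12, which lies at the decoding centre, was at 0.08 ± 0.16 (SE), and MRPS36 at 0.22 ± 0.21 (SE). Of the 3 relatives of bacterial S18, log2 fold changes were -0.08 for MRPS18A, -0.04 for MRPS18B and 0.35 for MRPS18C.

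The 3 knockdown libraries differed from one another more than the controls did. Over the 78 members, the median deviation from the control mean on the log2 scale was 0.17 in knockdown 1, -0.21 in knockdown 2 and 0.11 in knockdown 3, and it lay between -0.06 and 0.05 in the controls. Summed CPM was 5082, 4729 and 5163 in the controls and 5615, 4222 and 5375 in the knockdown-labelled libraries. Knockdown 2 was the lowest of the 6 libraries for 46 of 78 members (59.0%), where it was lowest for 25.6% of all genes tested and 30.4% of protein-coding genes. Knockdown 1 was the highest for 37 members (47.4%), against 23.7% of all genes. The pattern appeared in both subunits, with medians in knockdown 2 of -0.23 for large and -0.15 for small.

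Knockdown 2 also stood apart in other measures. Reads outside genes made up 37.5% of its uniquely aligned reads, against 21.5% to 24.95% in the other 5 libraries. The 13 protein-coding genes of mitochondrial DNA summed to 19656 CPM in it and to 9303 and 9692 CPM in knockdown 1 and 3, with 12326 to 17565 CPM in the controls. The part of these measures in the members' values was not tested. Without knockdown 2, 14 members were higher (17.9%) and 1 lower at an unadjusted p under 0.05, where 10.9% of all genes were higher and 11.2% lower, and 61 of 78 log2 fold changes were positive. Because bulk RNA was measured, fewer cells of a kind and less RNA per cell cannot be told apart.

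**Figure D3:**
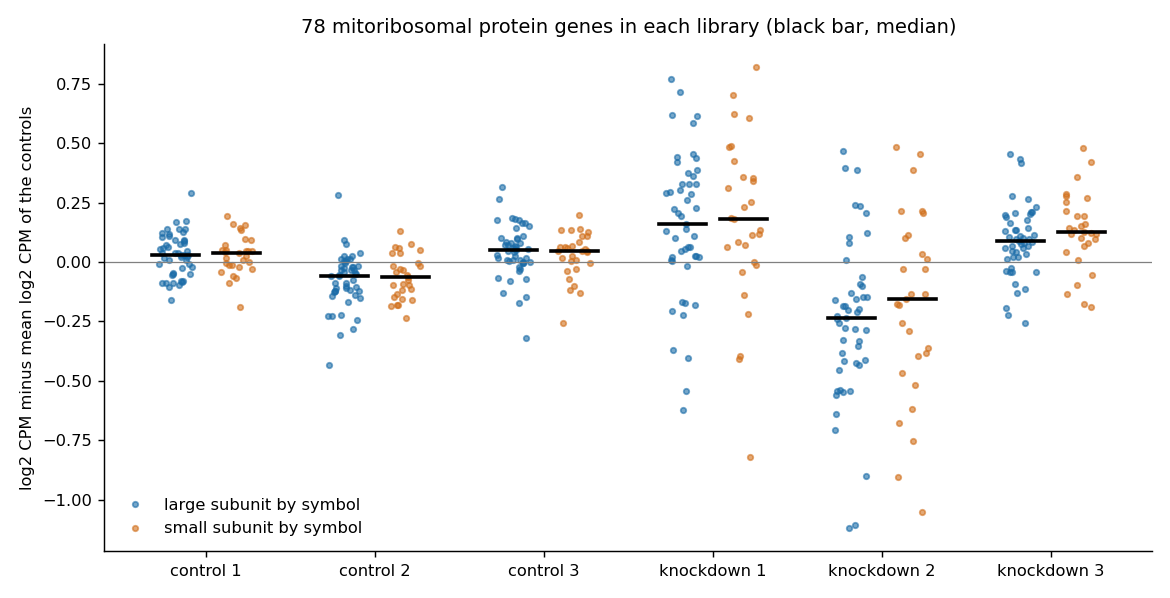
Each point is 1 member in 1 library, as log2 CPM minus the mean log2 CPM of the controls (y axis), with large-subunit genes in blue, small-subunit genes in orange and a black bar at each median. The medians of knockdown 2 lie below 0 at -0.23 and -0.15, and the points of the knockdown libraries spread more widely than those of the controls.

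Members with GC-poor transcripts tended to have positive and those with GC-rich transcripts negative log2 fold changes. Across the 78 members, the log2 fold change and the GC content of the longest transcript had a Pearson r of -0.51 and a Spearman rho of -0.44. Across the 18133 tested genes with a GC value, r was -0.06. Genes are not independent replicates, and all points share the same 6 libraries. MRPS30 had 34.5% GC and MRPS34 had 64.5%. In the 26 members of lowest GC the median log2 fold change was 0.12 with 21 positive. In the middle 26 it was -0.02 with 13 positive, and in the highest 26 it was -0.05 with 7 positive. All tested genes in the same GC ranges had medians of 0.03, 0.03 and -0.02.

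Within each knockdown library the members' r with GC was -0.51, -0.28 and -0.50 in knockdown 1, 2 and 3. After GC and length offsets fitted over all genes, r over the members was -0.35, and MRPS30 and MRPS34 were at 0.53 and -0.52 on the log2 scale. What underlies the relation was not tested.

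**Figure D4:**
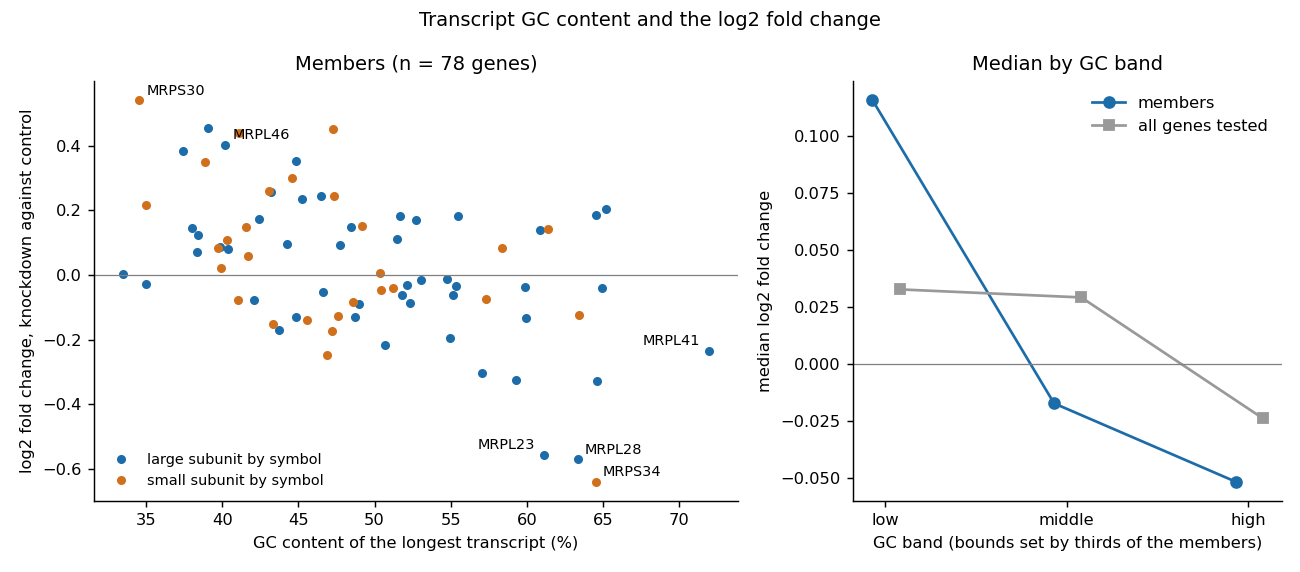
Left, log2 fold change (y axis) against GC content of the longest transcript (x axis, percent) for the 78 members, coloured by subunit. Right, median log2 fold change in 3 GC ranges for members (blue circles, 26 each) and for all genes tested (grey squares), which run from 0.12 to -0.05 in members and from 0.03 to -0.02 in all genes.

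Levels of the members spanned a wide range. Per kilobase of exon, MRPS34 was highest in the controls at 143 CPM per kb, followed by MRPL51 at 81.4, MRPL18, a relative of the protein that binds 5S ribosomal RNA in bacteria, at 76.4, MRPL37 at 70.1 and MRPL3 at 63.9 CPM per kb. These 4 after MRPS34 had log2 fold changes between -0.13 and 0.17 and overlapping groups. At the low end were MRPS24 at 0.569, MRPL23 at 2.45, MRPL38 at 2.49, MRPS28 at 3.11 and MRPL53 at 3.997 CPM per kb. MRPS24 stood at 1.53, 1.57 and 1.36 CPM in the controls, against 1.92, 2.07 and 2.11 CPM in the knockdown-labelled libraries, with no overlap, and its log2 fold change of 0.45 ± 0.28 (SE) had an adjusted p of 0.392 by edgeR.

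Part of the order of levels goes with how genes lie on the map. In 7 members at least 20% of exon bases are shared with another gene on the same strand, in GENCODE 29. They are MRPL12 (68.2%, with AC139530.2), MRPL53 (45.2%), MRPL38 (37.5%), MRPS28 (35.8%), MRPS24 (23.2%, with the read-through gene URGCP-MRPS24), MRPS17 (21.8%) and MRPL33 (21.1%). Their median control level was 3.997 CPM per kb, against 23.0 for the other 71, and they include 4 of the 6 lowest. Reads marked as ambiguous between genes, 2.87% to 3.70% of uniquely aligned reads, are counted for no gene in this table, so levels of these 7 are uncertain, and the part of the overlap in them was not tested. On the opposite strand 29 members overlap a gene, MRPS18C by 40.2% of its exon bases with ABRAXAS1, and whether counting used the strand is not given here. Pseudogenes of members had 75 rows, of which 6 reached 30 counts, and summed to 9.34 to 10.4 CPM in the controls and 10.1 to 17.0 CPM in the knockdown-labelled libraries.

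**Figure D5:**
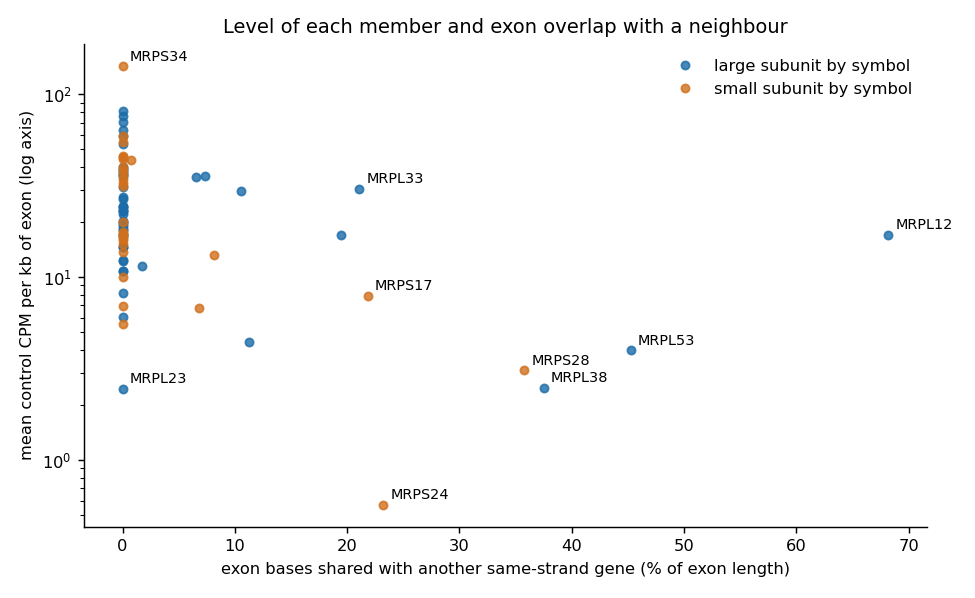
Mean control CPM per kilobase of exon (y axis, log scale) against the share of exon bases that lie in another gene on the same strand (x axis, percent) for the 78 members, coloured by subunit. MRPS34 is highest at 143 CPM per kb with no overlap, and MRPS24 is lowest at 0.569 CPM per kb with 23.2% overlap.

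Of the 31 members with a neighbour on the opposite strand, 13 had the same sign of log2 fold change as that neighbour. MRPL46 and MRPS11 are each other's neighbour, so this pair enters the count from both sides. The share over all protein-coding genes with such a neighbour was not computed, so the count is a description only. MRPL46 and MRPS11, whose starts lie 34 bases apart, were at 0.40 ± 0.15 (SE) and 0.01 ± 0.17 (SE). MRPS30 was at 0.54 and MRPS30-DT at -0.13 ± 0.27 (SE). MRPS18C was at 0.35 and HELQ at -0.07 ± 0.19 (SE). In the MRPS34 pair both values were negative, and EME2 stood at 44.6, 45.0 and 38.1 CPM in the controls, against 25.4, 29.6 and 35.7 CPM in the knockdown-labelled libraries. The 2 groups of EME2 did not overlap, and its log2 fold change was -0.49 ± 0.17 (SE) with an adjusted p of 0.149 by edgeR.

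Other genes of mitochondrial translation were read from lists. No gene of these lists passed an adjusted p of 0.05 by edgeR. At an unadjusted p under 0.05, which 20.5% of all genes reached, 1 of 15 translation factors was higher and 2 were lower. TUFM, the elongation factor that brings transfer RNA to the ribosome, stood at 334, 284 and 344 CPM in the controls, against 193, 216 and 294 CPM in the knockdown-labelled libraries, for -0.45 ± 0.18 (SE). GFM2, which acts in ribosome recycling, was at -0.47 ± 0.20 (SE), and PTRH2, a peptidyl-tRNA hydrolase, at 0.49 ± 0.20 (SE). Of 27 assembly factors, 2 were higher and 0 lower. NGRN, which is needed for the large-subunit ribosomal RNA, stood at 144, 105 and 104 CPM and at 287, 213 and 185 CPM, without overlap. Its log2 fold change of 0.96 ± 0.20 (SE) had an adjusted p of 0.0783 by edgeR and 0.00127 by DESeq2. FASTKD2, also a large-subunit assembly factor, was at 0.34 ± 0.15 (SE).

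Of 23 genes for mitochondrial transcription and RNA handling, 2 were higher and 0 lower at the same unadjusted mark. PTCD1, a protein of mitochondrial RNA processing, stood at 14.2, 11.8 and 13.4 CPM in the controls, against 26.1, 23.7 and 18.6 CPM in the knockdown-labelled libraries, a log2 fold change of 0.79 ± 0.19 (SE) with an adjusted p of 0.0916 by edgeR. MTPAP, the mitochondrial poly(A) polymerase, was at 0.39 ± 0.15 (SE). Of 5 proteases that process or degrade mitochondrial proteins, SPG7, a subunit of the m-AAA protease, was at -0.47 ± 0.14 (SE) and the only 1 with an unadjusted p under 0.05, and AFG3L2, its partner subunit, was at -0.27 ± 0.15 (SE). Of the 13 protein-coding genes of mitochondrial DNA, 0 had an unadjusted p under 0.05, and their median was 0.07.

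The 9 regulators of nuclear genes for mitochondria differed in direction, with 3 higher and 2 lower at an unadjusted p under 0.05 and 6 of 9 without overlap, where 20.5% of all genes reached that p and 26.8% had no overlap. PPRC1, a coactivator, stood at 70.7, 58.9 and 61.9 CPM in the controls, against 108, 126 and 84.4 CPM in the knockdown-labelled libraries, for 0.73 ± 0.17 (SE) and an adjusted p of 0.0914 by edgeR. YY1, whose core is common in the members' windows, was at 0.43 ± 0.15 (SE), and GABPA, the ETS factor, was at -0.37 ± 0.15 (SE). NRF1 itself was at -0.12 ± 0.15 (SE), with an adjusted p of 0.686 by edgeR. The related coactivators PPARGC1A and PPARGC1B were at -0.57 ± 0.25 (SE) and 0.38 ± 0.16 (SE). The median log2 fold change was 0.08 in the 29 members with an ETS core and -0.01 in the 40 without. It was 0.10 in the 20 members with a YY1 core and -0.02 in the 49 without. For an NRF1 core it was 0.12 in the 8 members with it and -0.01 in the 61 without, and these splits were not tested.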

How the data were processed

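The deposited values are raw counts, whole numbers of reads for each Ensembl gene, in 6 libraries, and the authors did not normalize them. Per the submitters' processing notes, the tools were bcl2fastq 2.18, TopHat2 2.0.13 (an aligner) and HTSeq (a read counter), on hg38. No HTSeq version, strand option or annotation release is given in the sources used here. Library sizes and tests leave out the 5 rows of unassigned reads. Groups and replicate numbers come from the titles. Symbols, exon lengths and GC content come from GENCODE 29, which matched 57055 of 60675 identifiers. Promoter windows come from RefSeq (GRCh38.p14), with the table's first start for each gene.

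The test was the two-sided quasi-likelihood F test of edgeR 4.0.16 under R 4.3.3 (filterByExpr, TMM factors, Benjamini-Hochberg over 18267 genes, threshold 0.05). CPM use TMM-scaled library sizes. Deviations by library use log2(CPM + 0.1). Replicates of a group differed beyond sampling noise in every pair. Alternatives were other scaling factors, DESeq2 1.42.0, limma voom 3.58.1, other filters, a fit of protein-coding genes only, a block for the replicate number, and fits without 1 library at a time. Offsets for GC content and length, and counts of groups without overlap on fewer libraries, came after seeing the data.

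The members and gene lists were chosen with earlier results of these data known. The rule for named genes took MOCS2, and in each subunit the 4 highest and 2 lowest levels per kb, the 4 most positive and 4 most negative log2 fold changes and the 3 smallest p. It also took 11 members set by name, the 5 added ribosomal proteins and the 2 smallest p of each other list. MRPS11, MRPL53, MRPS17, MRPL33, MRPL16, MRPL41, MRPL49, MRPL57, the neighbours on the opposite strand, PPRC1, YY1, GABPA, NRF1, PPARGC1A, PPARGC1B, GFM2, AFG3L2, PDGFRA and MRPL45P2 were named beside it after their values were seen where the rule did not take them. The values of a gene in the marker lists are not given here.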

Additional observations from a re-analysis of the deposited data

Results flagged for a closer look

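Reads outside genes made up 37.5% of uniquely aligned reads in knockdown 2, a signal in rows that the comparisons do not use and above the range of the controls. Pseudogenes of the members, which are not counted as members, summed to 11.7 CPM in knockdown 1 and 17.0 CPM in knockdown 2. Both lay above the control range of 9.34 to 10.4 CPM, while knockdown 3 had 10.1 CPM. The pseudogene MRPL45P2 made up 8.40 CPM of the sum in knockdown 2. It was among the genes tested, with a log2 fold change of 0.35 and an adjusted p of 0.531 by edgeR. Reads without a unique alignment are counted for no gene. Whether some of the reads in these pseudogene rows come from the parent genes was not tested.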

How the results depend on the processing

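With each library left out in turn, the members called at an adjusted p of 0.05 by edgeR numbered 0 to 1 higher and 0 to 2 lower, the calls arising without knockdown 3. DESeq2 called 1 member higher and the fit without a filter 1 member lower. At an unadjusted p under 0.05, leaving out 1 library gave 1 to 14 members higher and 1 to 7 lower. Over all genes, those fits gave 4.96% to 14.7% higher and 5.6% to 16.4% lower. Groups without overlap numbered 8 to 30 upward and 6 to 14 downward on leaving out 1 library, where 15.2% to 23.0% of all genes did so upward and 16.8% to 25% downward. The 30 upward arose without knockdown 2, where 20.4% of all genes did so. The difference in subunit medians was 0.025 with GC and length offsets, 0.023 by structure and -0.0019 to 0.071 on leaving out 1 library. The log2 ratio of summed CPM differed by -0.069 by structure. The cause of these shifts was not tested.

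Values near 0 changed sign. MOCS2 was at 0.0095 with upper-quartile factors and 0.0095 with protein-coding genes only, and -0.094 to 0.027 on leaving out 1 library. With GC and length offsets MRPL37 was at 0.020, MRPL11 at 0.0023 and CHCHD1 at -0.017. Without a filter CHCHD1 was at -0.011 and GADD45GIP1 at -0.0069, which voom put at -0.0074. Leaving out 1 library gave log2 fold changes of -0.22 to 0.086 for MRPL51, -0.24 to 0.033 for MRPL18, -0.13 to 0.070 for MRPL37, -0.35 to 0.086 for MRPS26, -0.34 to 0.11 for MRPS27, -0.18 to 0.035 for MRPL10, -0.18 to 0.14 for MRPL11, -0.20 to 0.10 for MRPL45, -0.067 to 0.17 for MRPS12, -0.19 to 0.051 for MRPS18A, -0.22 to 0.17 for MRPS18B, -0.047 to 0.40 for MRPS36, -0.19 to 0.078 for DAP3, -0.055 to 0.085 for CHCHD1 and -0.15 to 0.16 for GADD45GIP1. The 8 members with an unadjusted p under 0.05 kept their direction in every alternative run.

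The replicate block gave 5 members higher and 2 lower at an unadjusted p under 0.05 (8.28% and 11.0% of all genes), 0 at the adjusted threshold (0.0328% and 0.0712% of all genes), a difference in subunit medians of 0.077, and -0.0073 for GADD45GIP1. Same-numbered libraries had correlations of 0.11, -0.17 and -0.12, so the numbers were not taken to pair samples. With 3 libraries a group, depth limits MRPS24 most, whose lowest count in a library was 27.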
